A study of Bos taurus with 4 samples.

Results

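The genes described here are 9 that are best known from heat production in fat and muscle: UCP1, UCP2, UCP3, PPARGC1A, PPARGC1B, PRDM16, DIO2, COX7A1 and ESRRG. They were taken by symbol from the 21861 features of single-nucleus RNA sequencing of cattle fat, and each symbol matched 1 feature. The tissue came from 2 feedlot-raised beef steers that received no treatment and whose diet, age and breed are unknown. Each animal gave 1 library of subcutaneous backfat and 1 of intramuscular fat, the fat that lies between muscle fibres. There were thus 4 libraries, 2 per depot, all made from nuclei of fresh tissue. The libraries of a depot came from different animals, and nothing was done to either depot, so the design compares the depots only.

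Mitochondria make heat when protons flow back across their inner membrane without making ATP, and UCP1 of brown and beige adipocytes is the carrier that permits this. UCP2 and UCP3 are related carriers, the first found in many cell types and the second mainly in skeletal muscle, and neither is an established source of heat. PPARGC1A and PPARGC1B encode the coactivators PGC-1 alpha and PGC-1 beta, which raise the transcription of mitochondrial genes, and ESRRG encodes a nuclear receptor they act through. PRDM16 is a transcriptional regulator that favours the brown over the muscle fate, and DIO2 encodes the enzyme that makes active thyroid hormone inside the cell. COX7A1 encodes the muscle and heart form of a cytochrome c oxidase subunit and is also used as a brown fat marker. In cattle, brown fat is a tissue of the newborn that is largely replaced by white fat later.

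The libraries differed greatly in depth and in muscle RNA, and this bears on every depot value below. The libraries are given throughout as subcutaneous animal 1 and animal 2, then intramuscular animal 1 and animal 2, and in this order 874, 6126, 1774 and 63 nuclei were kept. They held 105481 to 4006966 UMIs (unique molecular identifiers, each counting 1 captured RNA molecule), and median UMIs per nucleus ran from 518 to 1100.5. All 15 muscle fibre markers were detected where the label is subcutaneous, and they took 4.53% and 16.5% of UMIs. Where the label is intramuscular, they took 0.00265% and 0.00948%, and 6 and 12 of the 15 were at 0. The 13 adipocyte markers found in the features were detected in every library and took 0.535%, 0.0461%, 1.59% and 1.49% of UMIs. Whether the depot labels were exchanged was not tested. Every direction between depots holds for the labels as given and would reverse if they had been exchanged. Libraries shared 4 cell barcodes in all, 0 to 2 per pair.

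UCP1 was not detected at all. It had 0 UMIs in each of the 4 libraries, which allows up to 2.63, 0.749, 1.10 and 28.4 counts of the gene per 1000000 UMIs (CPM). These limits are the level that 3 UMIs would give, and like all intervals here they cover counting error only. Over the 7968506 UMIs of all libraries the limit was 0.376 CPM. Within nuclei called adipocyte-like, by clusters whose leading genes held adipocyte markers, the limits were 11.7, 64.0, 1.77 and 29.6 CPM, and 1.43 CPM over all 997 of them. A gate that assigned each nucleus by its own markers gave 0 UMIs as well, with a limit of 1.52 CPM in the adipocyte-like nuclei of the deepest of these sets, the intramuscular library of animal 1. At these depths a level below those limits would not be seen, and whether the gene model covers the 3′ end of the cattle transcript, on which the kit counts, was not tested.

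Of the other 8 genes, UCP2 was the carrier found in both depots. It had 25, 16, 99 and 1 UMIs over the 4 libraries, which is 22.0, 3.99, 36.4 and 9.48 CPM. The depots overlapped. The ratio of subcutaneous to intramuscular level was 0.603 in animal 1 (95% interval 0.372 to 0.942) and 0.421 in animal 2 (0.0654 to 17.7), where it rests on 1 intramuscular UMI. These ratios compare 2 libraries, not 2 conditions.

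UCP3 was present in the libraries labelled subcutaneous and at 0 in the others. It had 10 and 446 UMIs, or 8.78 and 111 CPM, in subcutaneous animals 1 and 2, and 0 in both intramuscular libraries. Against the level that 3 UMIs give in the intramuscular library of the same animal, it was at least 7.96-fold higher in animal 1 and at least 3.91-fold higher in animal 2. The library of animal 2, which was higher, was also the one with the larger share of muscle marker UMIs.

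The coactivators were detected in all 4 libraries. PPARGC1A had 88 and 220 UMIs in the subcutaneous libraries, or 77.3 and 54.9 CPM, and 48 and 2 UMIs, or 17.7 and 19.0 CPM, in the intramuscular ones. Both subcutaneous libraries lay above both intramuscular ones, with within-animal ratios of 4.38 (3.04 to 6.36) and 2.90 (0.792 to 24.1). PPARGC1B had 9, 68, 28 and 5 UMIs in the same order, or 7.90, 17.0, 10.3 and 47.4 CPM. Its depots overlapped, with the highest level resting on 5 UMIs and within-animal ratios of 0.767 (0.318 to 1.67) and 0.358 (0.146 to 1.14), both intervals spanning 1.

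COX7A1 was the member with the most UMIs, 1879 in all. Its counts were 200, 1636, 41 and 2 UMIs, or 176, 408, 15.1 and 19.0 CPM. Both subcutaneous libraries were above both intramuscular ones, with within-animal ratios of 11.6 (8.29 to 16.7) and 21.5 (5.95 to 178). The other members were rare: PRDM16 had 7 UMIs in all, ESRRG 9 and DIO2 3. PRDM16 had 3, 3, 0 and 1 UMIs by library, ESRRG had 2, 4, 3 and 0, and all 3 DIO2 UMIs were in the subcutaneous library of animal 1. No depot comparison of these 3 genes was possible at such counts.

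**Figure D1:**
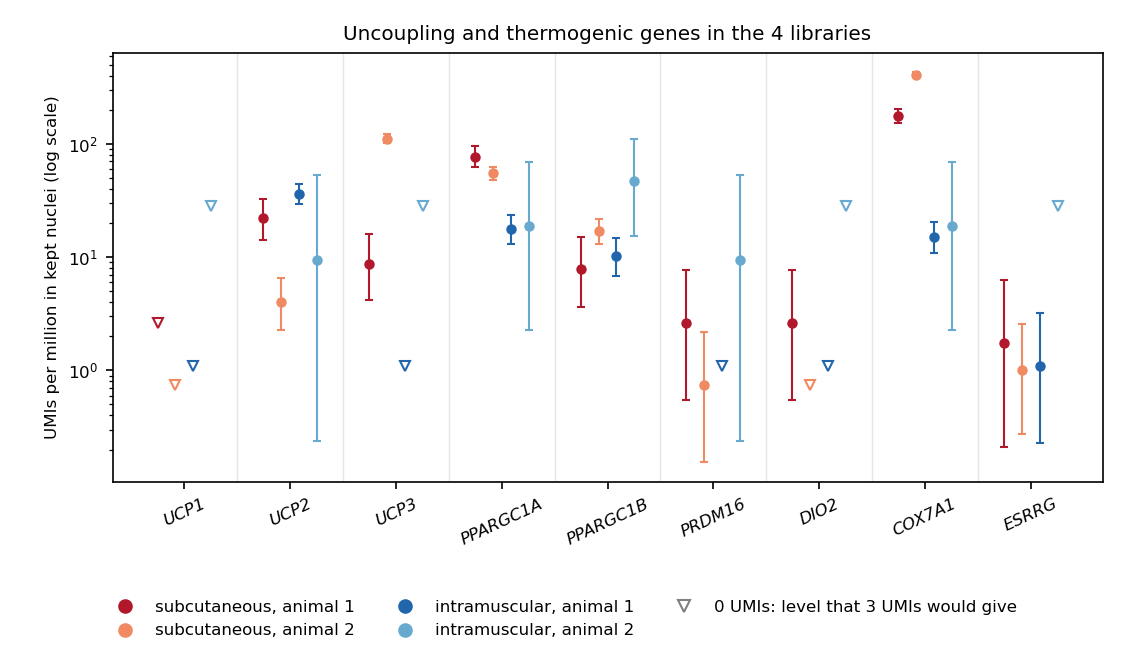
CPM (plotted as UMIs per 1000000 UMIs) of the 9 genes in each of the 4 libraries, on a log axis, with exact Poisson 95% intervals as bars; open triangles stand at the level that 3 UMIs would give where the count was 0. UCP1 has only triangles, UCP3 is at 8.78 and 111 in the subcutaneous libraries and at 0 in the intramuscular ones, and COX7A1 is above 170 in both subcutaneous libraries and below 20 in both intramuscular ones.

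Nuclei were then clustered with the 9 genes and the pathway genes left out, and clusters were named from marker genes. Named types were adipocyte-like, progenitor-like (fibroblast-like cells from which adipocytes form), blood endothelial-like, macrophage-like, pericyte/smooth muscle-like, satellite-like (muscle stem cells) and muscle fibre-like, and 3 of 16 clusters stayed unnamed. The subcutaneous libraries held 99 and 3860 muscle fibre-like nuclei, the intramuscular ones 0. Clusters rest on the same nuclei as the levels, so differences between types are described with the counting interval of the ratio and are not tested. Doublets, barcodes that hold more than 1 nucleus, were not removed.

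In the libraries of animal 1, among sets with more than 1 UCP2 UMI, the level was highest in blood endothelial-like and macrophage-like nuclei. The 10 satellite-like nuclei of subcutaneous animal 1 had 1 UMI, which is 70.4 CPM with an interval of 1.78 to 392. Endothelial-like nuclei held 52.5% of all UCP2 UMIs and 15.9% of all UMIs. Their levels were 43.0 CPM (15 UMIs) and 7.72 (3 UMIs) in subcutaneous animals 1 and 2, and 106 (56 UMIs, 80.2 to 138) in the intramuscular library of animal 1. Macrophage-like nuclei gave 46.7, 29.2 and 101 CPM in the same 3 libraries, from 3, 1 and 4 UMIs. The order of these 2 types cannot be told from such counts. Pericyte/smooth muscle-like nuclei had 0 UCP2 UMIs in subcutaneous animal 1 and stood at 15.1 CPM in animal 2, above the endothelial-like nuclei of that library.

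Adipocyte-like nuclei had less UCP2. They had 1 UMI in subcutaneous animal 1 (3.92 CPM), 0 in subcutaneous animal 2 and in intramuscular animal 2, and 28 in intramuscular animal 1 (16.5 CPM, 11.0 to 23.9). Progenitor-like nuclei were at 16.4, 0 and 24.1 CPM in the first 3 libraries, and muscle fibre-like nuclei at 8.77 and 2.49 in the subcutaneous ones. In the intramuscular library of animal 1 adipocyte-like, progenitor-like and endothelial-like nuclei thus followed in rising order, and the first pair did not differ beyond their intervals.

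Among the endothelial-like clusters, UCP2 was highest in the one led by GPIHBP1 and CLDN5. GPIHBP1 anchors lipoprotein lipase on capillary walls and CLDN5 is a tight junction protein of endothelium. In subcutaneous animal 1 this cluster had 12 UMIs in 83 nuclei, or 80.5 CPM (41.6 to 141), and the other endothelial-like nuclei had 3 UMIs in 132 nuclei, or 15.04 CPM. The ratio was 5.35 (1.44 to 29.6). In intramuscular animal 1, where 423 of the 424 endothelial-like nuclei were of this cluster, the level was 106 CPM and exceeded that of adipocyte-like nuclei 6.43-fold (4.02 to 10.5). The levels of this cluster in the 2 libraries of animal 1 lay within each other's intervals. Its leading genes also held 2 pericyte/smooth muscle markers. At coarser and finer clustering, the cluster led by GPIHBP1 and CLDN5 held 353 and 285 nuclei of intramuscular animal 1. In these clusterings 70 and 71 nuclei of that library were pericyte/smooth muscle-like. The part of such nuclei in the 423 and in their UCP2 level was not tested.

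The intramuscular endothelial-like nuclei also carried adipocyte markers. These took 1.29% of their UMIs, against 0.222% and 0.0291% in the subcutaneous ones, and the gate on single nuclei called 194 of the 1071 endothelial-like nuclei adipocyte-like. With the gate, UCP2 stood at 147 CPM (27 UMIs) in the endothelial-like and at 25.9 CPM in the adipocyte-like nuclei of that library. In subcutaneous animals 1 and 2 the gated endothelial-like nuclei gave 58.0 and 18.7 CPM. In animal 1 UCP2 was thus higher in endothelial-like than in adipocyte-like nuclei by both ways of assigning them. In subcutaneous animal 2 the adipocyte-like nuclei had 0 UMIs with a limit of 64.0 CPM, so the order was not detectable there.

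Most UCP3 UMIs were in muscle fibre-like nuclei, which held 62.5% of them and 31.7% of all UMIs. Fibre-like nuclei had 35.1 CPM (4 UMIs, 9.56 to 89.8) in subcutaneous animal 1 and 117 (281 UMIs, 103 to 131) in subcutaneous animal 2. The pooled shares rest mostly on animal 2, which had 446 of the 456 UMIs. In that library the fibre-like level was close to the 111 CPM over all kept nuclei. In animal 1 the level over all kept nuclei was 8.78 CPM. In animal 1 UCP3 was at 0 in adipocyte-like, endothelial-like, macrophage-like and pericyte/smooth muscle-like nuclei, with limits of 11.7, 8.61, 46.7 and 61.4 CPM. The limits of macrophage-like and pericyte/smooth muscle-like nuclei lie above the fibre-like level, so no difference from it could be seen there. Progenitor-like nuclei had 1 UMI. In animal 2 UCP3 was found at 42.7 CPM in adipocyte-like (2 UMIs), 51.5 in endothelial-like, 70.7 in pericyte/smooth muscle-like, 71.8 in progenitor-like and 161 in satellite-like nuclei (9 UMIs).

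All of those sets of animal 2 also held muscle marker RNA. The 15 fibre markers took 6.12% of UMIs in its adipocyte-like, 7.22% in its endothelial-like and 10.1% in its progenitor-like nuclei, against 19.9% in its fibre-like nuclei. Per 1000 muscle marker UMIs, UCP3 stood at 0.586 in fibre-like, 0.697 in adipocyte-like, 0.712 in endothelial-like, 0.527 in pericyte/smooth muscle-like and 0.710 in progenitor-like nuclei. It was higher in satellite-like nuclei at 1.37 and in the unnamed cluster led by TLE4 and UBE2C at 1.23, and macrophage-like nuclei had 0 UCP3 UMIs beside 3496 muscle marker UMIs. The part of free or co-captured muscle RNA in these levels was not tested. In the intramuscular nuclei UCP3 was at 0 in every type, with limits in animal 1 of 1.77 CPM in adipocyte-like, 5.69 in endothelial-like and 6.58 in progenitor-like nuclei.

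**Figure D2:**
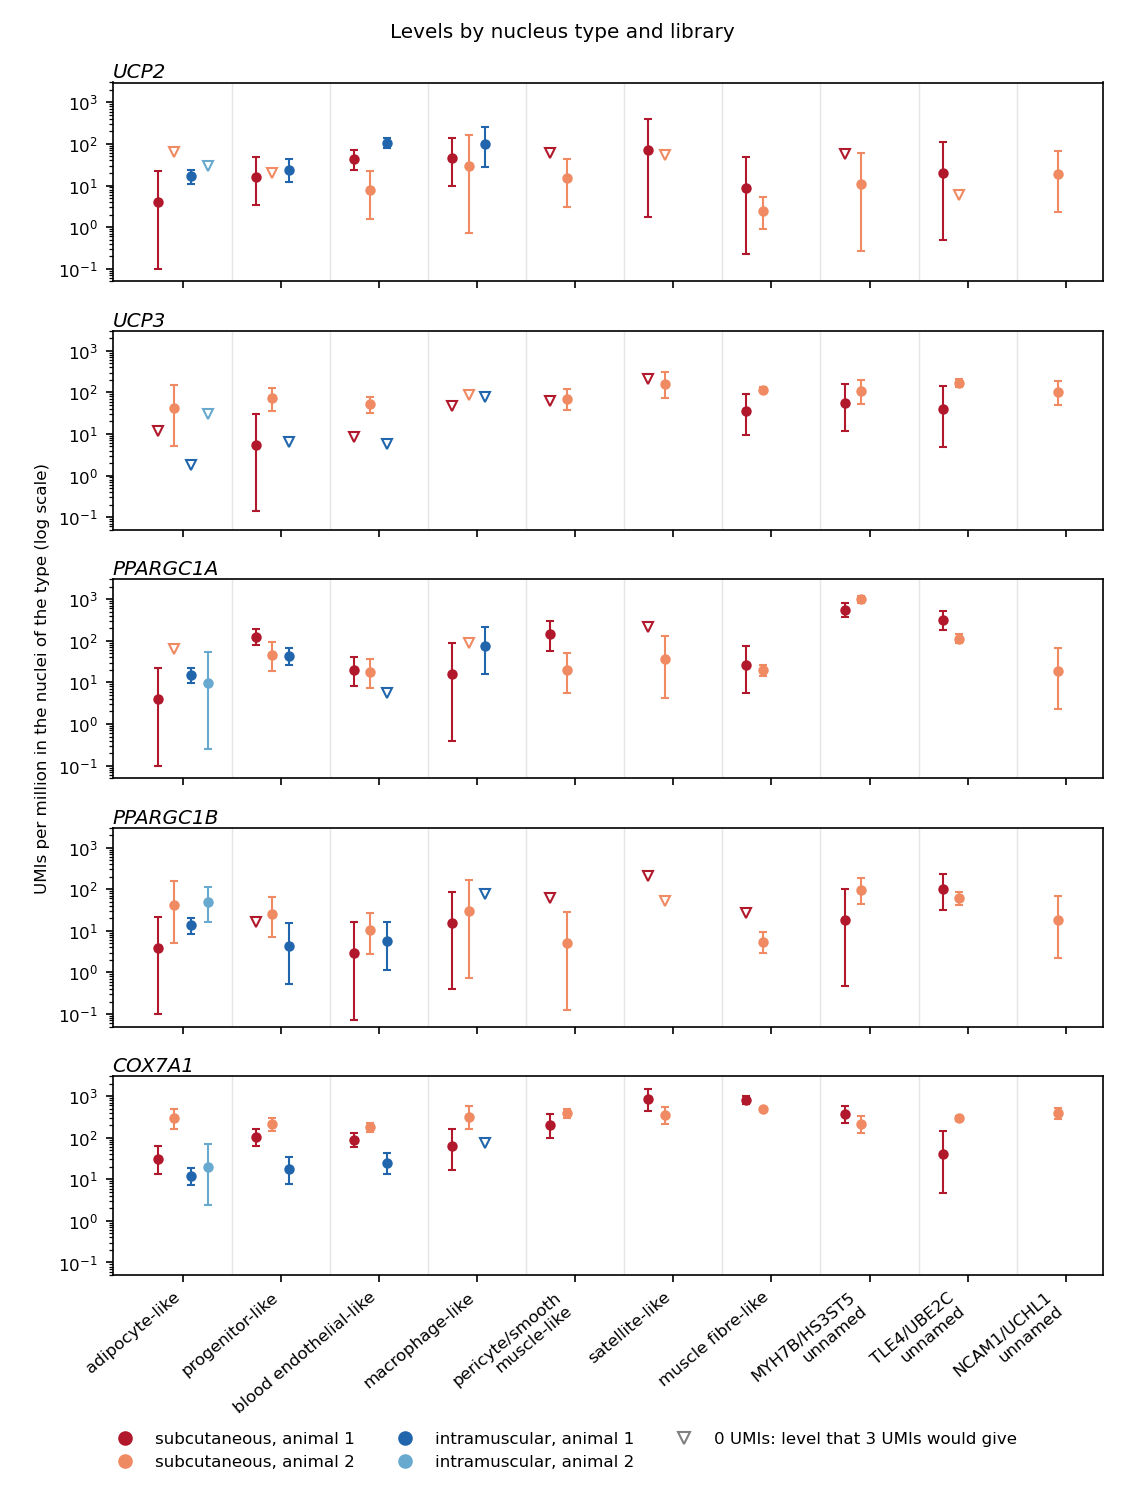
CPM of UCP2, UCP3, PPARGC1A, PPARGC1B and COX7A1 in each nucleus set with at least 10 nuclei, by library, with exact Poisson 95% intervals and open triangles at the level of 3 UMIs where the count was 0. UCP2 peaks in intramuscular endothelial-like nuclei at 106, PPARGC1A in the unnamed MYH7B cluster at 559 and 996, and COX7A1 in muscle fibre-like nuclei of subcutaneous animal 1 stands at 807.

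PPARGC1A was most concentrated in an unnamed cluster led by MYH7B, a myosin heavy chain gene, and HS3ST5, a heparan sulfate sulfotransferase. This cluster held 34.1% of PPARGC1A UMIs and 1.83% of all UMIs. It had 30 UMIs in 55 nuclei of subcutaneous animal 1, or 559 CPM (377 to 798), and 92 in 147 nuclei of subcutaneous animal 2, or 996 CPM (803 to 1221). Muscle fibre-like nuclei gave 26.3 CPM and 19.5 CPM in the same libraries, so the ratios were 21.3 (6.61 to 109) and 51.1 (35.6 to 74.2). These depend on the naming: the gate called 1036 nuclei of the unnamed clusters muscle fibre-like, and its fibre-like nuclei stood at 108 and 54.6 CPM.

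These UMIs were spread over many nuclei of the cluster. PPARGC1A was seen in 19 of its 55 nuclei and 59 of its 147, against 3 of 99 and 41 of 3860 muscle fibre-like nuclei. Median depth was similar, at 758 and 565 UMIs per nucleus in the cluster and 796 and 508 in fibre-like nuclei. PPARGC1A was not used to form the cluster but is itself among its 10 leading genes. A second unnamed cluster, led by TLE4, a transcriptional corepressor, and UBE2C, had 316 (16 UMIs) and 113 (59 UMIs) CPM. It exceeded fibre-like nuclei 12.0-fold (3.44 to 64.3) and 5.81-fold (3.90 to 8.72).

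Among fibre-like nuclei, PPARGC1A was higher in the slow than in the fast clusters. The slow cluster is led by TNNI1, the slow troponin I gene, and in animal 2 it had 45.4 CPM against 10.2 in the fast clusters, a ratio of 4.47 (2.40 to 8.55). In animal 1 the slow cluster had 3 UMIs and the fast clusters 0. Slow fibres are the oxidative, fatigue-resistant type in textbook accounts of muscle.

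Outside the muscle and unnamed clusters, progenitor-like nuclei held the most PPARGC1A UMIs in subcutaneous animal 1. They had 125 CPM (23 UMIs) and 45.7 (7 UMIs) in subcutaneous animals 1 and 2, and 43.9 (20 UMIs) in intramuscular animal 1. Adipocyte-like nuclei had 3.92, 0, 14.8 and 9.86 CPM over the 4 libraries, and the ratio of progenitor-like to adipocyte-like nuclei in intramuscular animal 1 was 2.97 (1.57 to 5.57). In subcutaneous animal 1 it was 32.05 (5.20 to 1320) against 1 adipocyte-like UMI, and 3.90 (1.71 to 9.97) with the gate, which put 8 UMIs in adipocyte-like nuclei. Endothelial-like nuclei had 20.1 and 18.0 CPM in the subcutaneous libraries and 0 in intramuscular animal 1, a limit of 5.69, so that progenitor-like nuclei were at least 7.71-fold higher there. Pericyte/smooth muscle-like nuclei of subcutaneous animal 1 stood higher, at 143 CPM, with all 7 UMIs in 2 nuclei. Macrophage-like nuclei of intramuscular animal 1 were also above its progenitor-like nuclei, at 75.5 CPM from 3 UMIs (15.6 to 221).

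The TLE4 cluster held 33.6% of PPARGC1B UMIs and 7.16% of all UMIs. Adipocyte-like nuclei held 28.2%, near their 26.3% of all UMIs. The TLE4 cluster had 98.8 (5 UMIs) and 61.5 (32 UMIs) CPM in subcutaneous animals 1 and 2, while muscle fibre-like nuclei had 0 and 5.39. The ratio was at least 3.75-fold in animal 1 and 11.4 (5.82 to 23.7) in animal 2. The MYH7B cluster gave 18.6 and 97.4 CPM, the second 18.1-fold (6.81 to 45.7) above fibre-like nuclei.

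In adipocyte-like nuclei PPARGC1B had 3.92, 42.7, 13.6 (23 UMIs) and 49.3 (5 UMIs) CPM over the 4 libraries, and only the third rests on more than 5 UMIs. In intramuscular animal 1 the ratio of adipocyte-like to progenitor-like nuclei was 3.095 (0.765 to 27.1), an interval that spans 1.

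ESRRG, PRDM16 and DIO2 can only be located UMI by UMI. Of the 9 ESRRG UMIs, 3 were in the MYH7B cluster, 2 in the TLE4 cluster, 1 in fibre-like, 2 in intramuscular adipocyte-like and 1 in progenitor-like nuclei. Of the 7 PRDM16 UMIs, 4 were in endothelial-like nuclei of the subcutaneous libraries, and the others in 1 progenitor-like, 1 fibre-like and 1 intramuscular adipocyte-like nucleus. DIO2 had 2 UMIs in 1 adipocyte-like nucleus and 1 in a progenitor-like nucleus.

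**Figure D3:**
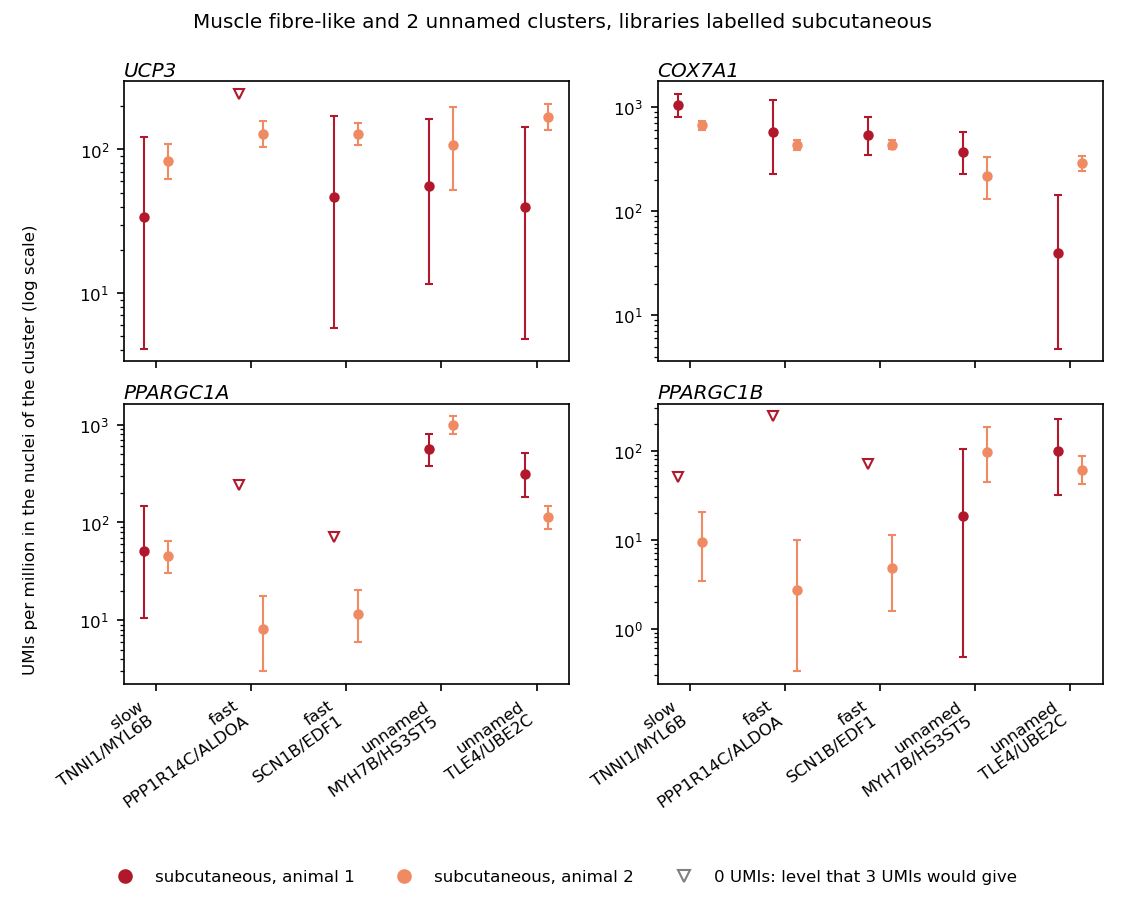
CPM of UCP3, COX7A1, PPARGC1A and PPARGC1B in the slow fibre cluster, both fast fibre clusters and the unnamed MYH7B and TLE4 clusters of the subcutaneous libraries, with exact Poisson 95% intervals. PPARGC1A is at 559 and 996 in the MYH7B cluster and at 26.3 and 19.5 over all fibre-like nuclei, while COX7A1 is lower in both unnamed clusters than in the slow cluster.

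COX7A1 was highest in muscle nuclei. Muscle fibre-like nuclei held 68.8% of its UMIs, with 807 CPM (92 UMIs) in subcutaneous animal 1 and 498 (1200 UMIs) in animal 2. Over all kept nuclei of these libraries it stood at 176 and 408 CPM, so the fibre-like level of animal 2 was little above that of its library. The 10 satellite-like nuclei of animal 1 were at 845 CPM (12 UMIs, 436 to 1476). The slow cluster had 1047 and 671 CPM and the fast clusters 547 and 436, ratios of 1.91 (1.22 to 3.06) and 1.54 (1.36 to 1.73). UCP3 differed the other way in animal 2, with 129 CPM in the fast and 83.1 in the slow clusters (ratio 1.55, 1.14 to 2.13), and in animal 1 with 2 UMIs in each its ratio was 1.08 (0.0783 to 14.9).

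The MYH7B and TLE4 clusters, high in PPARGC1A, had less COX7A1 than fibre-like nuclei. The MYH7B cluster had 373 and 216 CPM of COX7A1, 0.462 (0.2699 to 0.756) and 0.435 (0.265 to 0.674) times the fibre-like level. The TLE4 cluster had 39.5 and 290 CPM, 0.0490 (0.00584 to 0.182) and 0.583 (0.489 to 0.691) times. The remaining unnamed cluster, led by NCAM1 and UCHL1, was not high in PPARGC1A, at 18.6 CPM (2 UMIs) in animal 2. Its COX7A1 was 391 CPM (282 to 528) there, against 498 in fibre-like nuclei. UCP3 was not lower in the TLE4 cluster of animal 2, at 169 CPM (88 UMIs), 1.45 (1.13 to 1.85) times the fibre-like level. In that library the MYH7B cluster had 108 CPM of UCP3 (51.9 to 199) and the NCAM1 cluster 102 (51.1 to 183), against 117 in fibre-like nuclei.

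In adipocyte-like, endothelial-like and progenitor-like nuclei COX7A1 moved with muscle marker RNA. In subcutaneous animals 1 and 2 it had 31.3 and 299 CPM in adipocyte-like, 89.0 and 178 in endothelial-like, and 104 and 215 in progenitor-like nuclei, and the muscle markers took 0.886% and 6.12%, 1.45% and 7.22%, and 1.57% and 10.1% of UMIs in these same sets. In each of these types the library with more muscle marker RNA had more COX7A1. Satellite-like nuclei went the other way, with 845 CPM (12 UMIs) at 8.48% in animal 1 and 357 CPM at 11.8% in animal 2. The gate put the adipocyte-like nuclei of subcutaneous animal 1 at 90.9 CPM. Per 1000 muscle marker UMIs, COX7A1 ran from 2.13 to 6.62 over the adipocyte-like, endothelial-like and progenitor-like sets, against 3.70 and 2.50 in fibre-like nuclei. Satellite-like nuclei were at 9.96 and 3.03 in animals 1 and 2, and the TLE4 cluster was at 0.440 (2 UMIs) and 2.11.

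A low level of COX7A1 was present in nuclei with almost no muscle marker RNA. In intramuscular animal 1 the muscle markers took 0.00212% of UMIs in adipocyte-like, 0.00152% in endothelial-like and 0.00614% in progenitor-like nuclei, and COX7A1 stood at 11.8, 24.7 and 17.5 CPM. Its share of the summed UMIs of COX7A1 and COX7A2, the gene of the form made in most tissues, was 6.87% (exact Clopper-Pearson 95% interval 4.25 to 10.4), 7.98% and 6.84% in the same sets. In fibre-like nuclei that share was 92.0% and 92.9%.

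**Figure D4:**
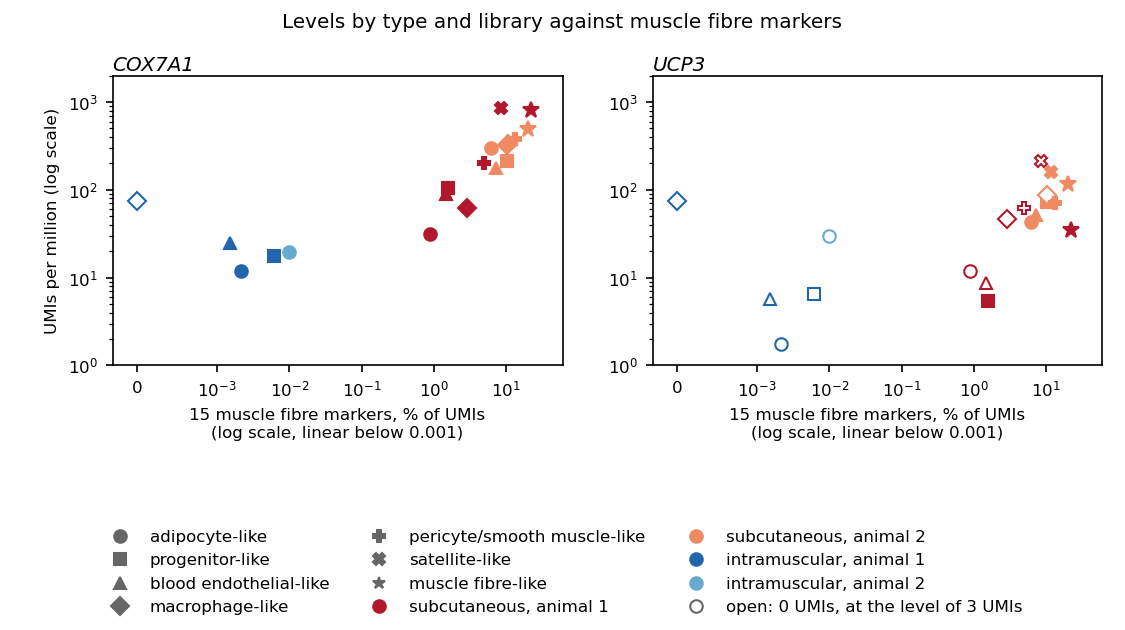
CPM of COX7A1 and UCP3 against the share of UMIs taken by the 15 muscle fibre markers, 1 point per nucleus set and library, both axes logarithmic, open symbols at 0 UMIs. In subcutaneous animal 1 COX7A1 was at 31.3 CPM in adipocyte-like (share 0.886%), 845 in satellite-like (8.48%) and 807 in fibre-like nuclei (21.8%), so the rise with the share is not steady. COX7A1 remains between 11.8 and 24.7 in the adipocyte-like, endothelial-like and progenitor-like nuclei of intramuscular animal 1.

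Depots were compared on UMIs summed per library, with edgeR's quasi-likelihood test and Benjamini-Hochberg adjustment over all genes tested. Each change is the log2 ratio of the intramuscular to the subcutaneous level, followed by its standard error (SE). In sums over all kept nuclei, fewer nuclei of a type and less RNA per nucleus cannot be told apart. The 5 members that passed the count filter were UCP2, UCP3, PPARGC1A, PPARGC1B and COX7A1, and 1 of them, UCP3, was lower in the intramuscular libraries, where 1.53% of 11143 genes were called. Its adjusted p was 0.0461 with a fitted change of −10.61 (SE 2.35), a value that depends on how counts of 0 are handled. From the group means and the level that 3 UMIs give per library, UCP3 was at least 4.06-fold lower in the intramuscular libraries. This bound and the later ones from group means take the subcutaneous mean as exact and carry no interval.

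The other 4 members did not pass the threshold. COX7A1 changed by −5.23 (SE 1.35, adjusted p 0.0786 in edgeR) and PPARGC1A by −2.60 (SE 0.84, 0.219), each with the depots apart. UCP2 changed by 0.80 (SE 0.84, 0.793) and PPARGC1B by −0.40 (SE 1.02, 0.929), with the depots overlapping. The share of all genes tested whose depots lay apart was not counted, so separation is not a trait particular to these members. The median over the 5 members was −2.60, or −2.02 with UCP3 at its bound, beside −0.16 over all genes tested. The UCP3 call was lost with the test of DESeq2 (adjusted p 0.309) and without the intramuscular library of animal 1 (0.0637 in edgeR), and the gene did not pass the count filter without the subcutaneous library of animal 2 or with nuclei of at least 500 genes. COX7A1 was called with DESeq2 (0.000341) and, in edgeR, with no count filter (0.00986) and without the subcutaneous library of animal 1 (0.0200).

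When the nuclei called muscle fibre-like or satellite-like were removed, 0.0% of 10606 genes were called by edgeR, and 0 of the 4 members tested. These sums still held the unnamed clusters, whose nuclei carried 8.98% to 14.8% muscle marker UMIs. Among all genes 911 had an unadjusted p under 0.05, DESeq2 called 308, and edgeR with the animal as a block called 237. COX7A1 still had 96 and 416 UMIs in the subcutaneous sums and 41 and 2 in the intramuscular ones, a change of −3.91 (SE 0.97, adjusted p 0.128 in edgeR). PPARGC1A changed by −2.75 (SE 0.75, 0.183), but by −0.90 (0.745) once the unnamed clusters, which were found in the subcutaneous libraries only, were left out too. UCP2 (0.89, SE 0.79, 0.796) and PPARGC1B (−0.69, SE 1.07, 0.886) stayed far from the threshold. COX7A1 was called with DESeq2 (0.00974) and, in edgeR, with no count filter (0.00251) and without the subcutaneous library of animal 1 (0.0191), and PPARGC1A with no count filter (0.0317).

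In adipocyte-like nuclei no member had enough UMIs to be tested, where 0.534% of 4305 genes were called (23, or 45 with the animal as a block). In 3 further types intramuscular animal 2 fell short of 10 nuclei, so 2 subcutaneous libraries were set against 1, which was assumed to vary as they do. In progenitor-like nuclei COX7A1 was lower in the intramuscular library, with 104, 215 and 17.5 CPM and a change of −3.28 (SE 0.82, adjusted p 0.0171 in edgeR), where 3.02% of 5266 genes were called. The muscle markers took 1.57% and 10.1% of UMIs in the subcutaneous progenitor-like nuclei against 0.00614%, and their part in the difference was not tested. The call was lost with the size factors of DESeq2 (0.168), with its test (0.481) and without the nuclei of highest UMI count (0.260 in edgeR).

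PPARGC1A in progenitor-like nuclei changed by −0.999 (SE 0.73, adjusted p 0.893 in edgeR). The ratio of subcutaneous to intramuscular level in animal 1 was 2.86 (1.503 to 5.49). Most progenitor-like nuclei of intramuscular animal 1 were of a cluster led by PTX3 and GFPT2, and most of subcutaneous animal 2 were of one led by PDGFRA and NOVA1, so depot and cluster are partly joined.

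In blood endothelial-like nuclei 0 of 3 members tested were called, where 3.51% of 7718 genes were. UCP2 was higher in the intramuscular library (43.0, 7.72 and 106 CPM), with a change of 2.16 (SE 0.62) that missed the threshold (adjusted p 0.0790 in edgeR). UCP2 passed the threshold with nuclei of at least 500 genes, without those of highest UMI count, and at coarser and finer clustering. It did not pass with DESeq2's size factors, with no count filter or with the gate, where the change was 2.01 (SE 0.58). COX7A1 changed by −2.41 (SE 0.65) and was called in 3 of the settings where UCP2 passed, finer clustering among them. With the gate COX7A1 changed by −1.87 (SE 0.70) and was not called. UCP3 changed by −6.54 (SE 3.17, 0.404), at least 4.52-fold lower from the group means, but the subcutaneous mean came from animal 2 alone, since animal 1 was at 0 too. The cluster led by GPIHBP1 and CLDN5 held 83, 6 and 423 of the 215, 431 and 424 nuclei, so UCP2 was compared over different endothelial clusters. In macrophage-like nuclei COX7A1 was the 1 member tested and was not called (−6.37, SE 4.30, adjusted p 0.658 in edgeR), where 5.39% of 1168 genes were. Pericyte/smooth muscle-like nuclei had no intramuscular library with 10 or more nuclei at the main clustering. At coarser and finer clustering, 70 and 71 nuclei of intramuscular animal 1 took this name, and no depot change is given for them.

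Other genes of the same pathways were followed in 6 lists, over all kept nuclei first. Of the regulators that work with the PGC-1 coactivators 1 of 20 tested was lower in the intramuscular libraries and 0 higher, with a median of −0.46. That gene was PERM1, a muscle regulator induced by PGC-1, at 69.4 and 84.9 CPM in the subcutaneous libraries and 0 in the intramuscular ones (edgeR, adjusted p 0.0337), at least 5.22-fold lower. The list's most abundant genes were PPARG, the master regulator of adipocytes, at 352, 13.5, 652 and 872 CPM, and NCOR1, a corepressor, at 329, 240, 320 and 313, and neither was called.

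Of the brown and beige fat markers 0 of 16 tested were called, with a median of 0.44. CIDEA, a lipid droplet protein also abundant in white fat of many mammals, had 66.7, 12.7, 294 and 1915 CPM. COX8B, a cytochrome c oxidase subunit gene of muscle and brown fat, had 332, 890, 11.8 and 0. Their changes differed in sign, and neither passed the threshold (adjusted p 0.224 and 0.0718 in edgeR). ELOVL3 had 2 UMIs in all, both in intramuscular animal 1, and SLC36A2 and FGF21 had 0 in every library, as UCP1 did. Of the 26 markers of this list in the features, only these 2 were at 0 in all libraries, and the others were detected. ADRB3, the beta-3 adrenergic receptor gene, had 15, 2, 2 and 8 UMIs.

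Among creatine and calcium cycling genes, 2 of 12 tested were lower and 0 higher, with a median of −3.47. These were CKMT2, the muscle mitochondrial creatine kinase gene (137.9, 899, 2.58 and 0 CPM, adjusted p 0.0485 in edgeR), and PLN, whose product restrains the calcium pump (230.1, 254, 5.52 and 0, 0.0343). SLN, the sarcolipin gene, and ATP2A1, the calcium pump gene of fast fibres, were the most abundant of the list at up to 4887 and 3685 CPM in subcutaneous animal 2. They were at 0 and at or below 9.48 in the intramuscular libraries and were not called (adjusted p 0.0889 and 0.115 in edgeR).

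Cytochrome c oxidase isoforms gave 1 lower of 12, with a median of −2.66. It was COX6A2, the muscle form of its subunit, at 234, 823, 0 and 0 CPM (edgeR, adjusted p 0.0339), at least 35.7-fold lower. COX4I1 and COX5B, which most cells express, had 442, 862, 413 and 37.9 CPM and 271, 718, 262 and 0 CPM over the 4 libraries. The depots were thus close in animal 1. In animal 2 they lay far apart, but in its intramuscular library 1 UMI is 9.48 CPM and a count of 0 allows up to 28.4 CPM. That library also had few mitochondrial UMIs: their shares were 1.24%, 1.65%, 1.32% and 0.0133% over the 4 libraries. Whether the gap reflects the depot or this library was not tested. Of the mitochondrial carriers 0 of 7 were called (median −1.01), with SLC25A4, the adenine nucleotide carrier of muscle, at 610, 2042, 255 and 19.0 CPM and SLC25A6 at 371, 110.1, 250.2 and 28.4. Of the thyroid hormone genes 0 of 7 were called (median 0.22), with RXRA at 160, 100.3, 122 and 540 CPM and MED1 at 146, 55.4, 158 and 199.

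With nuclei called muscle fibre-like or satellite-like left out, 0 genes of the 6 lists were called, and within adipocyte-like nuclei 0 as well. In progenitor-like, endothelial-like and macrophage-like nuclei the genes that were lower in the intramuscular library were genes of muscle: SLN, ATP2A1, RYR1, CKMT2 and COX6A2 in all 3, PLN in progenitor-like and endothelial-like, and COX8B in progenitor-like nuclei (−4.59, adjusted p 0.00972 in edgeR). RYR1 is also one of the 15 muscle markers. Those that were higher were CIDEA (28.7, 15.4 and 173 CPM, 3.02, adjusted p 0.00490 in edgeR) and CKB, the brain-type creatine kinase gene (74.6, 23.2 and 292, 2.67, 0.0169), both in endothelial-like nuclei. Adipocyte markers were higher in the same set, as given above, and their part in these values was not tested.

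For the 5 members with at least 50 UMIs, the genes most alike were sought by the correlation of log2(CPM + 10) over 24 sums of a nucleus set in a library, among 9979 genes. These sums share libraries, depth and free RNA, so the values of r are a description. COX7A1 was most like COX6A2 (r 0.94), S100A1 (0.93) and GOT2 (0.92). UCP3 was most like ASB16 (0.92), NEURL1 (0.90) and COBL (0.89). PPARGC1A was most like HS3ST5 (0.88), SLC6A8, the creatine transporter gene (0.87), and a feature without a gene name (0.84), and the first of these also leads the MYH7B cluster. PPARGC1B was most like SPPL3 (0.82), MOSPD1 (0.78) and HOMER1 (0.78), and UCP2 most like SLC25A16 (0.80), ATP6AP2 (0.77) and a feature without a gene name (0.76).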

How the data were processed

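Nuclei of 4 libraries were counted by the authors with Cell Ranger 6.0.1 per the file headers, on build ARS-UCD1.2 per the submitters' processing notes. Which annotation release was used, and whether introns were counted, is not given in the sources used here. Values as deposited are raw UMI counts per gene and barcode.

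Nuclei with at least 200 genes and under 10% mitochondrial UMIs were kept (8837 of 9893). They were clustered with scanpy 1.11.5 and igraph 0.11.9 (2000 variable genes without 100 member and pathway genes, 30 components, 15 neighbours, Leiden resolution 1.0), and a cluster took a type's name if its 100 leading genes held at least 3 of that type's markers. No doublet caller was run. In the single-nucleus gate, a type other than muscle fibre needed at least 3 detected markers and more than any other such type. Muscle markers were not counted against these types. Muscle fibre-like nuclei needed at least 5 muscle markers and fewer than 2 markers of every other type. Levels are CPM with exact Poisson 95% intervals, from scipy 1.17.1. Sets of at least 10 nuclei were summed per library and tested with edgeR 4.0.16 in R 4.3.3 (filterByExpr, TMM, quasi-likelihood F test, threshold 0.05); DESeq2 1.42.0 was an alternative. The test was also tried on simulated counts of fixed dispersion, a value that was set and not estimated from these libraries. With 8-fold changes it recovered 24.1% of changed genes over all kept nuclei and 18.8% without fibre-like and satellite-like nuclei. With 32-fold changes it recovered 94.9% and 89.9%. Within single types, recovery of 8-fold changes ran from 3.63% in progenitor-like to 27.1% in adipocyte-like nuclei. At 32-fold it ran from 72.2% in blood endothelial-like to 98% in adipocyte-like nuclei. Up to 11 unchanged genes were called. Recovery in the real libraries can differ from these values, since COX7A1 was not called over all kept nuclei at a change of −5.23. A gene not called can still differ 8-fold or more.

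The labels tie both depots to an animal, so the animal numbers pair the libraries. Deviations from the depot means correlated at −0.0984 between the libraries of an animal, over 10258 genes. Samples within a depot are different animals.

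The members and lists were chosen with earlier results of these data known. Named were all members, genes of the 6 pathway lists past the threshold (at most 4 per list and direction), the 2 most abundant per list, and the 3 genes most correlated with each member with at least 50 UMIs; ELOVL3, SLC36A2, FGF21, ADRB3, COX7A2 and the leading genes of clusters were named outside this rule, after their values were seen. The lists cover PGC-1 partners, brown and beige markers, creatine and calcium cycling, thyroid hormone, cytochrome c oxidase and carriers; BMP8B, DIO1, COX6C and COX7C were not among the feature names. The gene table at hand is of ARS-UCD2.0, so no coordinates are given. In it UCP1, UCP2, UCP3 and COX7A1 overlap no other gene, while PPARGC1A, PPARGC1B, PRDM16, DIO2 and ESRRG overlap small or long non-coding RNA genes, from which some UMIs could come.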

Additional observations from a re-analysis of the deposited data

Results flagged for a closer look

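Barcodes that failed the nucleus filters held many UMIs of 2 of the members. In the subcutaneous library of animal 2, 1029 barcodes were left out, 1027 of them for fewer than 200 genes, with 347517 UMIs in all. They held 52 UCP3 UMIs (150 CPM) and 166 COX7A1 UMIs (478 CPM), above the level that a count of 0 allows. They also held 1 UCP2, 3 PPARGC1A and 2 PPARGC1B UMIs, at or below that level. These levels are near the 117 and 498 CPM of that library's muscle fibre-like nuclei, and whether the barcodes are nuclei or free RNA was not tested.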

How the results depend on the processing

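Member levels kept within their intervals in 817 results and moved in 47, and of the members' fold changes 120 kept direction and side of the threshold, 14 came to pass it, 5 no longer did and 11 turned round. The cause was not tested. Turned round were PPARGC1B over all kept nuclei with the animal as replicate block (0.18), without subcutaneous animal 2 or intramuscular animal 1 (−1.11 to 1.27 leaving out each library in turn; 0.77 without the latter) and with nuclei of at least 500 genes (0.10), and without fibre-like and satellite-like nuclei under the block (0.029), without the same libraries (−1.48 to 1.202; 0.38), with the gate (0.19) and without unnamed nuclei (0.85, chosen after seeing the data). UCP2 turned round without intramuscular animal 1, to −0.91 over all kept nuclei (up to 1.62 leaving out another library) and −0.93 without fibre-like and satellite-like nuclei (up to 1.53).

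Counts of called genes moved more. Over all kept nuclei 170 became 346 with DESeq2's test and 444 with no count filter, and leaving out a library gave 24 (without intramuscular animal 1) to 411 (without subcutaneous animal 1). Without fibre-like and satellite-like nuclei 0 became 237 under the block, 308 with DESeq2, 473 with no filter, 89 at 500 genes, 156 with the gate and 0 to 344 leaving out a library. In adipocyte-like nuclei 23 became 45 under the block, 46 with DESeq2, 87 with no filter, 35 without the top 5% of UMI counts, 85 with the gate, 0 at resolution 2.0 and 28 to 302 leaving out a library. In progenitor-like nuclei 159 became 0 with DESeq2's size factors, 80 with its test, 94 at 500 genes, 0 without the top 5% and 369 with the gate. In endothelial-like nuclei 271 became 0 with size factors, 88 with DESeq2, 0 with no filter, 408 at 500 genes and 68 with the gate. In macrophage-like nuclei 63 became 0 with size factors, no filter, 500 genes, without the top 5% and at resolution 2.0, and 36 with DESeq2. The block changed no call of a member. No paired analysis was possible in progenitor-like, endothelial-like and macrophage-like nuclei because 1 animal had no intramuscular library with 10 nuclei, and leaving out a library there leaves no residual degrees of freedom or no depot. The 63 nuclei of intramuscular animal 2 limit every value from it.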
